A study of Mus musculus with 12 samples.

Results

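The translation initiation and elongation factors are the proteins that load ribosomes on a messenger RNA and then move them along it. Their genes were taken as every protein-coding mouse gene whose symbol starts with Eif1 to Eif6 or with Eef1 or Eef2, leaving out the 4 kinases of eIF2 alpha (Eif2ak1 to Eif2ak4). The rule used names only, no measured value, but it was chosen with earlier results of these data known. It found 65 genes among the 36528 gene numbers of the tables. Of these, 6 encode elongation factors proper, 44 initiation factors, 7 enzymes or partners that act on elongation factors, 4 proteins that bind and inhibit the cap-binding protein eIF4E, 2 the factor eIF5A and 2 eIF4A3 or its copy, which serve in splicing.

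RNA had been sequenced from Cd11b+ myeloid cells sorted from the brains of male mice at 6 months of age. Mice with a human tau transgene that carries the P301S mutation (hMAPT-P301S, here P301S) gave 6 libraries, and Non-Transgenic littermates (NonTg) gave the other 6. The labels used here name neither the strain nor the promoter that drives the transgene, nor do they say whether a library holds 1 animal or a pool. The p-values therefore measure the spread between these 12 samples.

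In elongation, eEF1A brings each charged transfer RNA to the ribosome as a complex with GTP, the eEF1B complex reloads eEF1A with GTP, and eEF2 shifts the ribosome along by a codon. The kinase eEF2K phosphorylates eEF2 and so slows this shift, and the messenger RNAs of eEF1A and eEF2 belong to the class with a 5′ terminal oligopyrimidine tract, whose translation follows mTORC1 activity. Initiation needs many more parts: eIF4E, eIF4G and eIF4A at the cap, the large scaffold eIF3 on the small subunit, eIF2 with the first transfer RNA and its exchange factor eIF2B, and eIF5, eIF5B and eIF6 at subunit joining.

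Total counts ran from 1196069 to 4145069 per library. Mitochondrial genes took 15.5% ± 3.36 of the counts in NonTg and 25.0% ± 6.91 in P301S (SD, n = 6; two-sided exact permutation p = 0.0195, overlapping groups), and the nuclear RNA Malat1 took 14.7% ± 2.39 and 9.51% ± 1.04 (p = 0.00216 by the same exact test, no overlap). All 8 microglia markers were detected, and their summed level was 7648 to 10921 counts scaled to library size (CPM) in NonTg and 4412 to 6354 CPM in P301S. Neuron markers summed to 115 to 349 CPM in NonTg and 64.5 to 349 CPM in P301S, and astrocyte markers to 124 to 690 and 154 to 708 CPM. Lists for oligodendrocytes, border macrophages, monocytes, neutrophils, T cells, B cells, endothelium and erythroid cells also overlapped between the genotypes, with Cldn5 of endothelium and Hba-a1 of erythroid cells at 0 in all libraries. Of the 61 single markers, 5 did not overlap. Among all genes with enough counts for a test, P301S lay wholly above NonTg for 2.24% and wholly below for 1.05%. Many of the 61, all T cell and B cell markers among them, were too low for a test. Itgam, P2ry12 and Cx3cr1 of microglia were lower in P301S. Gfap of astrocytes (0.785 to 6.09 CPM in NonTg, 11.1 to 23.2 CPM in P301S) and Flt1 of endothelium (0.914 to 9.74 and 11.6 to 76.95 CPM) were higher. How far these shifts carry into the values below was not tested, except where a fit without the mitochondrial genes and Malat1 is given. In bulk RNA, fewer cells of a type and less RNA per cell cannot be told apart.

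Of the 4 genes of the set called between genotypes, 2 encode elongation factors, 1 a kinase that acts on eEF2 and 1 an initiation factor. Eef1a1 and Eef2, the main factors of elongation, were 2.79-fold and 3.80-fold higher in P301S, and Eef2k, the kinase that restrains eEF2, was 2.73-fold lower. Of the 44 initiation factors, 40 were tested and a single one was called, Eif3d, a subunit of eIF3, which was 4.23-fold higher. A gene was called when its Benjamini-Hochberg adjusted p in edgeR's quasi-likelihood test over all 10022 genes with enough counts was under 0.05. Of the 53 genes of the set that were tested, 3 were called higher and 1 lower, against 2.37% of all tested genes called higher, 1.5% called lower and 3.87% called in either direction. The other 49 were not called.

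Because these 4 genes were the ones called, the genomic sequence around their start sites is given first (RefSeq, build GRCm38.p6). Each run goes 5′ to 3′ on the strand of the gene, from 250 bases before the start to 30 after it. Capitals mark matches to the cAMP response element TGACGTCA, the TATA motif TATAAA or the E-box CACGTG, searched on both strands; no matches overlap. The windows lie at chr9:78481695-78481974 (minus strand) for Eef1a1, chr10:81176381-81176660 (plus) for Eef2, chr7:120842581-120842860 (plus, the first listed of 3 starts) for Eef2k and chr15:77970795-77971074 (minus) for Eif3d.
Eef1a1: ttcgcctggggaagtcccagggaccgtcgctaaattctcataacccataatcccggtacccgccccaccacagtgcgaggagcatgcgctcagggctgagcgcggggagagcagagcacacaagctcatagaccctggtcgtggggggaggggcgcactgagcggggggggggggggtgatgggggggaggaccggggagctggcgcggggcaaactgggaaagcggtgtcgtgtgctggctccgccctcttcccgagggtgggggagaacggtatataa
Eef2: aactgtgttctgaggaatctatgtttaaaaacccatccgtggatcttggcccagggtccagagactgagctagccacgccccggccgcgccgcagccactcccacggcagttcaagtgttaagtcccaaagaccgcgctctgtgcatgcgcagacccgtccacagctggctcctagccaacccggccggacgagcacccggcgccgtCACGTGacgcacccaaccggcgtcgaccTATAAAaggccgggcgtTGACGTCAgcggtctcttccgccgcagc
Eef2k: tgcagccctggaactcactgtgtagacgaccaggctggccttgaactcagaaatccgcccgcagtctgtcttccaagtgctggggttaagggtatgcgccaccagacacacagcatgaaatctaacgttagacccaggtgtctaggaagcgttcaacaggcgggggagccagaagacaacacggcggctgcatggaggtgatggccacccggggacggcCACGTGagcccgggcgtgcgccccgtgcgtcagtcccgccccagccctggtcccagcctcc
Eif3d: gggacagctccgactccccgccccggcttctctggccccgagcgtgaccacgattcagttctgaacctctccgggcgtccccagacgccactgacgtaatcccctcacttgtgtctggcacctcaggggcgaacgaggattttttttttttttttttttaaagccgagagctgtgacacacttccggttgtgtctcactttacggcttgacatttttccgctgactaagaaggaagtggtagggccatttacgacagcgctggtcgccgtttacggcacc

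With the start counted as base 1, the window of Eef2 holds the E-box with its first base at -43, the TATA motif at -15 and the cAMP response element at 3. The window of Eef2k holds an E-box at -31, and none of the 3 motifs lies in the windows of Eef1a1 and Eif3d. The start used for Eef2k lies inside the listed span of the gene, which begins at chr7:120842642, and so does its E-box. Of the 65 genes, 49 matched the table of start sites, with 63 windows. Over those 63 windows the E-box was found in 15 (23.8%, 13 genes), against 6.79% of all 32851 windows of the same length. Beside Eef2 and Eef2k, the genes with an E-box included Eif4e, Eif4g1, Eif4a1, Eif3a and Eif5a, none of which was called. TATAAA was found in 5 windows (7.94%, against 13.1% of all) and the cAMP response element in that of Eef2 alone (1.59%, against 1.74%). A match describes letters in the window and was not tied to binding of any factor.

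Eef1a1 (Entrez gene 13627, chr9:78478453-78481724) encodes the form of eEF1A found in most tissues. Its level in the 6 NonTg libraries had a lowest value of 66.7, a median of 97.3 and a highest value of 160 CPM. In the 6 P301S libraries these were 214, 279 and 413 CPM. Every P301S library lay above every NonTg library, and the difference in log2 level was 1.48 ± 0.24 (SE; edgeR adjusted p = 2.58e-04; means 103.9 ± 31.4 and 291 ± 76.4 CPM, SD, n = 6). Eef1a2, the form known from neurons and muscle, had 2 counts over the NonTg group and 15 over the P301S group, 12 of them in P301S replicate 4, too few for a test.

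Eef2 (Entrez gene 13629, chr10:81176631-81182509) encodes the translocase of the ribosome. The NonTg libraries had a lowest value of 64.0, a median of 123 and a highest value of 134 CPM, and the P301S libraries 234, 378 and 681 CPM. The groups did not overlap here either, and the log2 difference was 1.92 ± 0.27 (SE; edgeR adjusted p = 2.51e-05; means 112 ± 28.0 and 428 ± 186 CPM, SD, n = 6). The spread within P301S was wide: replicates 4 and 5 stood at 681 and 625 CPM, and the other 4 libraries between 234 and 419 CPM. P301S replicate 4 also had the highest level of Eef1a1.

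Eef2k (Entrez gene 13631, chr7:120842642-120907219) moved the other way. Its lowest, median and highest values were 154, 204 and 302 CPM in NonTg and 51.5, 81.9 and 109 CPM in P301S. All P301S libraries were below all NonTg libraries, with a log2 difference of -1.45 ± 0.26 (SE; edgeR adjusted p = 6.49e-04; means 219 ± 65.9 and 80.2 ± 20.1 CPM, SD, n = 6). Taken within each library, the counts of Eef2 divided by those of Eef2k came to 0.377 to 0.706 in NonTg and 2.57 to 8.65 in P301S. Eef2k thus had more counts than Eef2 in every NonTg library and fewer in every P301S library. These counts were not scaled to length, and the longest transcripts have 6580 bases for Eef2k and 3089 for Eef2. With reads scaled to gene length and library size (RPKM), NonTg means were 7.23 ± 2.15 for Eef2k and 8.12 ± 1.98 for Eef2. In P301S they were 2.65 ± 0.659 and 31.2 ± 14.05 RPKM. The noncoding gene Gm36449 overlaps Eef2k but had 6 counts in all libraries, against 4200 for Eef2k.

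The calls of Eef1a1, Eef2 and Eef2k were made in each of 23 other fits (other scalings, tools and filters, and each library left out in turn). With mitochondrial genes and Malat1 taken out, their log2 differences were 1.47, 1.92 and -1.46. Groups that do not overlap were found for 2.24% of all tested genes with P301S above and 1.05% with P301S below. In the set these were Eef1a1 and Eef2 above and Eef2k below, and the other 50 tested genes overlapped.

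**Figure D1:**
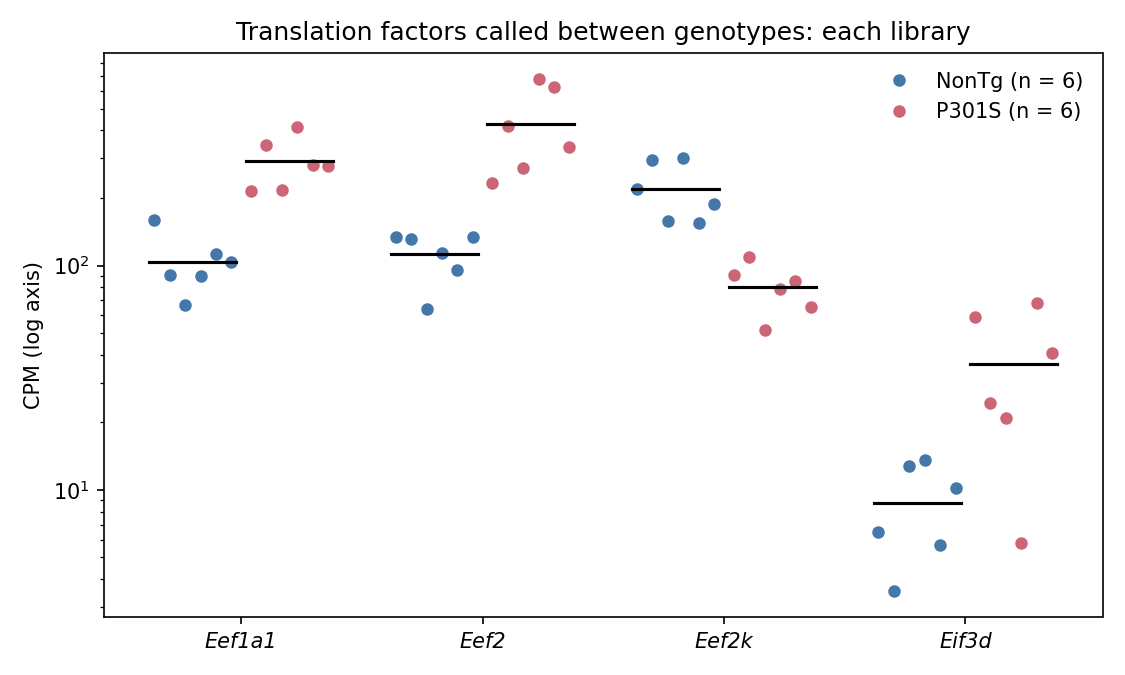
Level of the 4 called genes in each library (CPM with scaled library sizes, log axis; each point is 1 library, the black line is the mean of 6). P301S points of Eef1a1 and Eef2 lie above all NonTg points, those of Eef2k lie below, and for Eif3d P301S replicate 4 at 5.81 CPM falls within the NonTg range.

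The 3 subunits of the eEF1B exchange complex were not called by edgeR, DESeq2 or limma voom, and 1 of them, Eef1b2, had an unadjusted p under 0.05. Eef1b2, its alpha subunit that exchanges the nucleotide, had 12.2, 19.1 and 47.0 CPM as lowest, median and highest in NonTg and 13.3, 46.6 and 86.5 CPM in P301S, with 3 P301S libraries above the NonTg range. Its log2 difference was 1.08 ± 0.46 (SE; edgeR adjusted p = 0.225). Eef1d, a second exchange subunit, differed by 0.70 ± 0.54 (adjusted p = 0.601; means 19.8 ± 9.89 and 32.4 ± 19.3 CPM). Eef1g, the anchoring subunit, differed by -0.12 ± 0.68 (adjusted p = 0.960; 7.26 ± 3.97 and 6.66 ± 3.01 CPM), and its 95% interval from -1.63 to 1.38 leaves room for a change in either direction.

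Of the enzymes and partners of elongation factors other than Eef2k, Eef2kmt and Eef1akmt2 could be tested, which encode methyltransferases of eEF2 and eEF1A. Eef2kmt differed by 0.59 ± 0.63 (SE; edgeR adjusted p = 0.740; 15.7 ± 11.8 in NonTg and 24.2 ± 12.9 CPM in P301S) and Eef1akmt2 by -0.53 ± 0.66 (adjusted p = 0.785; 11.4 ± 6.73 and 7.92 ± 4.08 CPM). Both overlapped between the genotypes. The other 4 were too low for a test. Eef1akmt1 had 26 counts in NonTg and 90 in P301S, 43 of those in P301S replicate 6, Eef1aknmt had 36 and 16, and Eef1e1 22 and 24. Eef1akmt3 had 0 counts in all 12 libraries, which allows a level of up to 0.101 CPM over the pooled 29817000 counts.

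Summed over the 6 elongation factors, the share of all counts was 0.0173% to 0.0353% in NonTg (mean 0.0266% ± 0.00742, SD, n = 6) and 0.0468% to 0.0985% in P301S (0.0762% ± 0.0200). The ranges did not overlap, and the ratio of the means was 2.86. The 44 initiation factors took 0.418% to 0.577% in NonTg (0.482% ± 0.0561) and 0.464% to 0.553% in P301S (0.497% ± 0.0345). These ranges overlapped, with a ratio of 1.03. Without mitochondrial genes and Malat1 in the total, the ratios were 3.11 and 1.10. Eef1a1 and Eef2 made up most of the elongation counts, so the sum mainly repeats those 2 genes.

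**Figure D2:**
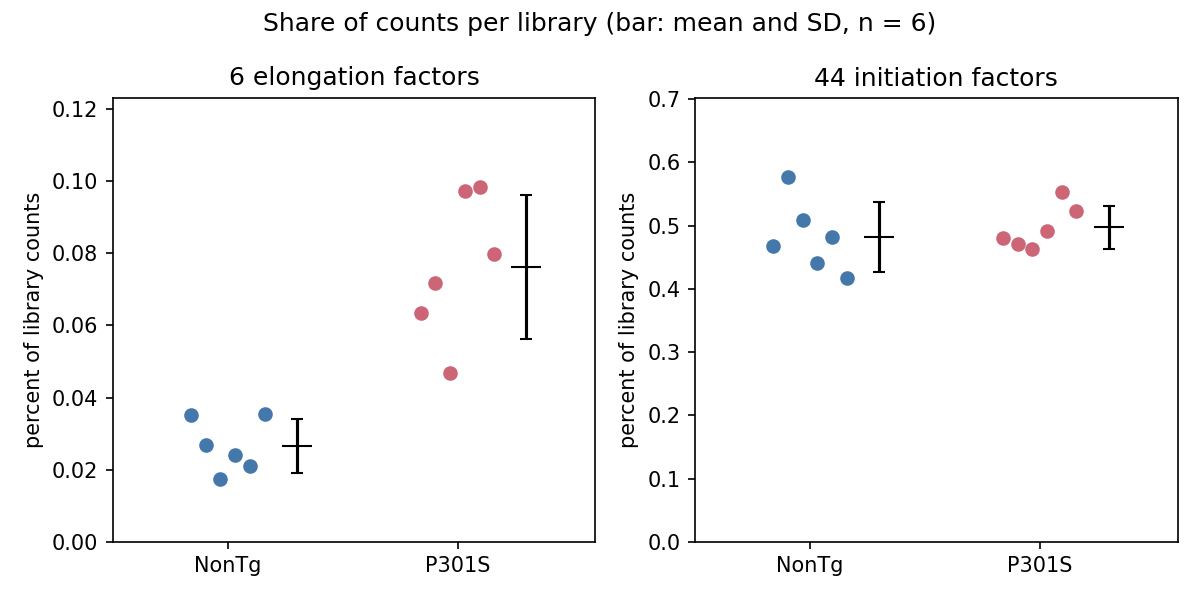
Share of each library's counts that fell on the 6 elongation factors (left) and the 44 initiation factors (right), in percent; points are libraries and bars show the mean and SD of 6. The elongation share is 0.0173% to 0.0353% in NonTg and 0.0468% to 0.0985% in P301S, while the initiation share overlaps between genotypes; the axes of the panels differ in range.

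By gene, 2 of the 5 tested elongation factors were called, both higher, with a median log2 difference of 1.08 over the 5 (range -0.12 to 1.92). Of the 40 tested initiation factors 1 was called, higher, with a median of 0.19 (range -1.09 to 2.08), 24 of them above 0 and 16 below. The median over all tested genes was -0.02, with 48.8% above 0. At an unadjusted p under 0.05, 3 elongation factors were higher and 0 lower, and 7 initiation factors were higher and 0 lower, against 8.02% of all tested genes higher and 7.74% lower. The share of genes called was larger at higher levels: 9.09% of all tested genes at a mean of 50 CPM or more were called, 2.54% of those between 10 and 50 CPM and 0.648% of those below 10 CPM. The set had 3 called of 14, 1 of 24 and 0 of 15 genes in these bins. Its median standard errors on the log2 scale were 0.25, 0.55 and 0.77, so differences in the lower genes are known less precisely.

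The scaffold eIF3 had 13 of its 14 listed subunit genes tested. Eif3d, the subunit known to bind the cap of some messenger RNAs (Entrez gene 55944, chr15:77958998-77970824), had 3.53, 8.35 and 13.5 CPM as lowest, median and highest in NonTg and 5.81, 32.6 and 67.9 CPM in P301S. In P301S, 5 of 6 libraries lay above the NonTg range and replicate 4, at 5.81 CPM, within it. The log2 difference was 2.08 ± 0.57 (SE; edgeR adjusted p = 0.0363; means 8.71 ± 4.08 and 36.5 ± 23.9 CPM, SD, n = 6). This call was close to the threshold: it held in 13 of the 23 other fits. It was lost with limma voom (adjusted p = 0.0569), in both fits on RPKM (0.0623 and 0.0745), and without NonTg replicate 1 (0.0687), 2 (0.0700), 5 (0.0738) or 6 (0.0602) or P301S replicate 1 (0.110), 5 (0.126) or 6 (0.0751), while the log2 difference on the count scale stayed between 1.82 and 2.32.

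The other eIF3 subunits were not called. Eif3b, the subunit that anchors the complex's peripheral module, had 4.87 to 16.4 CPM in NonTg, and in P301S 5 libraries at 22.8 to 37.0 CPM and replicate 4 at 4.52 CPM, below the NonTg range. Its log2 difference was 1.40 ± 0.56 (SE; edgeR adjusted p = 0.191). Eif3f, with 21.1 ± 12.4 and 42.0 ± 15.4 CPM, differed by 0.98 ± 0.47 (adjusted p = 0.307). Over the 13 tested subunits, 10 differences were above 0 and 3 below, with a median of 0.27.

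Eif3a, the largest subunit, stood apart by level. It had 976 to 1895 CPM in NonTg and 1231 to 2230 CPM in P301S, with overlapping groups and a log2 difference of 0.19 ± 0.17 (SE; edgeR adjusted p = 0.692; 95% interval -0.20 to 0.58). Per length, as deposited in reads scaled to gene length and library size (RPKM), its mean was 66.2 ± 15.2 in NonTg and 75.5 ± 15.4 in P301S (SD, n = 6). The other 13 listed genes of the complex, with both Eif3j1 and Eif3j2, had mean RPKM from 0.209 to 10.9 (median 1.24) in NonTg. In P301S these means ran from 0.308 to 13.1 (median 2.06). The lowest value in both groups was that of Eif3j1, which was too low for a test and overlaps Spg11 (4840 counts against 101). Eif3a carried 46772 counts over all libraries. The 2 small RNA genes inside it, Snora19 and Mir3084-2, were listed at 0.

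Of the cap-binding and helicase factors of eIF4, 10 of 11 were tested and none was called by edgeR, DESeq2 or limma voom, while 3 had an unadjusted edgeR p under 0.05 (Eif4b, Eif4g1 and Eif4e). Eif4e, the cap-binding protein, was low, with 0.812 to 9.39 CPM in NonTg and 5.61 to 23.0 CPM in P301S. Its log2 difference was 1.52 ± 0.74 (SE; edgeR adjusted p = 0.313), with 3 P301S libraries above the NonTg range. Eif4b, the cofactor of the helicase, had 5.48 to 69.8 CPM in NonTg and 36.7 to 130 CPM in P301S, and differed by 1.27 ± 0.45 (adjusted p = 0.122). Eif4b was called when no filter on low counts was applied (adjusted p = 0.0247).

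Among the scaffolds, Eif4g1 had 58.5 to 190 CPM in NonTg and 108 to 213 CPM in P301S, a log2 difference of 0.76 ± 0.28 (SE; edgeR adjusted p = 0.147). The 190 CPM belonged to NonTg replicate 2, and without that library the difference was 1.09 and was called (adjusted p = 0.0210). The scaffold Eif4g2, which lacks the site for eIF4E, differed by -0.08 ± 0.21 (adjusted p = 0.918; 433 ± 115 and 411 ± 84.2 CPM), and Eif4g3 by -0.19 ± 0.18 (0.687; 548 ± 96.3 and 479 ± 70.8 CPM). Their 95% intervals ran from -0.53 to 0.38 and from -0.59 to 0.21, which leave out a difference of the size measured for Eef1a1.

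The helicase genes Eif4a1 and Eif4a2 had differences of opposite sign and neither was called. Eif4a1 had 19.2 ± 6.83 CPM in NonTg and 34.1 ± 16.8 CPM in P301S, with 5 P301S libraries above the NonTg range and 1 below it (log2 difference 0.83 ± 0.48, SE; edgeR adjusted p = 0.419). Eif4a2 had 106 ± 28.9 and 84.3 ± 9.63 CPM, and every P301S library lay inside the NonTg range (-0.34 ± 0.27; adjusted p = 0.614). Eif4e1b, a germline form of eIF4E, had 21 counts in NonTg and 0 in P301S, all in 3 libraries, and was not tested.

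Of the 4 proteins that bind and inhibit eIF4E, none of the 3 tested was called. Eif4ebp1 had 7 counts in NonTg and 53 in P301S, 42 of them in P301S replicate 5, and was not tested. Eif4ebp2 had 14.9 ± 11.5 and 19.0 ± 5.64 CPM with all P301S libraries inside the NonTg range (log2 difference 0.34 ± 0.60, SE; edgeR adjusted p = 0.864). Eif4ebp3 differed by -0.24 ± 0.83 (adjusted p = 0.938; 9.46 ± 12.3 and 7.85 ± 7.28 CPM) and Eif4enif1, which carries eIF4E into the nucleus, by -0.05 ± 0.41 (0.975; 65.5 ± 46.8 and 64.0 ± 22.0 CPM).

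None of the 5 tested genes of eIF2 and related carriers of the initiator transfer RNA was called by edgeR, DESeq2 or limma voom, and 0 had an unadjusted edgeR p under 0.05. The same holds for the 4 tested genes named Eif1, the 3 of subunit joining, the 3 inhibitors above and the 2 of eIF5A. Eif2s1, the alpha subunit that the stress kinases phosphorylate, had a median of 9.56 CPM in NonTg and 15.7 CPM in P301S (log2 difference 0.87 ± 0.60, SE; edgeR adjusted p = 0.537). Eif2d, an alternative carrier, differed by 0.33 ± 0.61 (adjusted p = 0.869; medians 19.6 and 22.1 CPM) and overlaps Rassf5, which had 929 counts against its 715. The gamma subunit is encoded on both sex chromosomes, and in these males the Y copy, Eif2s3y, had 34.5 ± 21.1 and 28.9 ± 20.2 CPM (-0.24 ± 0.51; adjusted p = 0.888). The X copy Eif2s3x had 13 counts in NonTg and 20 in P301S. Only uniquely aligned reads were counted, so reads shared by near-identical copies are missing from both.

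The 5 genes of eIF2B, the exchange factor that eIF2 needs after each round, had differences in both directions, and none was called by edgeR or DESeq2, while 1, Eif2b3, had an unadjusted edgeR p under 0.05. Eif2b3 (gamma) had 8.99 ± 10.2 CPM in NonTg and 25.8 ± 12.7 CPM in P301S, with 4 P301S libraries above the NonTg range (log2 difference 1.55 ± 0.72, SE; edgeR adjusted p = 0.283). It was called with limma voom (adjusted p = 0.0408). Eif2b5 (epsilon, the catalytic subunit) differed by -1.09 ± 0.67 (adjusted p = 0.471; 19.5 ± 15.1 and 9.05 ± 8.81 CPM), and Eif2b2 (beta) by 0.77 ± 0.82 (0.740; 5.02 ± 3.50 and 8.62 ± 6.09 CPM).

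eIF1 and eIF1A take part in setting the start codon. The 4 tested genes named for them, which include Eif1ad, a gene named for its eIF1A domain, had differences below 0, and none was called. Eif1 had 5.02 ± 2.06 CPM in NonTg and 2.34 ± 2.47 CPM in P301S (log2 difference -1.08 ± 0.79, SE; edgeR adjusted p = 0.569). Eif1ad differed by -0.80 ± 0.64 (adjusted p = 0.625; 12.6 ± 7.21 and 7.27 ± 2.17 CPM) and Eif1b by -0.58 ± 0.93 (0.844; 11.3 ± 16.4 and 7.25 ± 7.91 CPM). Eif1b in NonTg rested on replicate 3, at 43.9 CPM against at most 11.4 CPM in the other 5 libraries. Without that library its difference was 0.63.

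The factors of subunit joining included some of the most abundant genes of the set, and none of the 3 was called. Eif5b, the GTPase of joining, had 715 to 1605 CPM in NonTg and 642 to 1790 CPM in P301S (log2 difference -0.03 ± 0.21, SE; edgeR adjusted p = 0.974; 95% interval -0.50 to 0.44). Eif5, which makes eIF2 hydrolyse its GTP, had 238 ± 43.8 and 187 ± 33.1 CPM (-0.35 ± 0.21; adjusted p = 0.467). Eif6, which keeps the subunits apart, was low, with 5.94 ± 3.14 and 5.51 ± 5.63 CPM (-0.10 ± 0.77; adjusted p = 0.971).

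The 2 genes of eIF5A, the hypusine-carrying factor that helps ribosomes through difficult stretches such as prolines, were low and not called. Eif5a had 8.21 ± 7.06 CPM in NonTg and 15.5 ± 14.7 CPM in P301S, with replicate 5 at 44.4 CPM (log2 difference 0.92 ± 0.73, SE; edgeR adjusted p = 0.622). Its neighbour Gps2 overlaps it and had 2914 counts against 398, and without a stated strand their reads cannot be told apart. Eif5a2 had 5.92 ± 3.43 and 2.83 ± 2.81 CPM (-1.08 ± 0.78; adjusted p = 0.564). Of the other genes too low for a test, Eif4a3 had 81 counts in NonTg, 54 of them in replicate 1, and 43 in P301S, Eif4a3l1 had 2 and 0, Eif1ax 16 and 35, and Eif3j1 34 and 67.

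**Figure D3:**
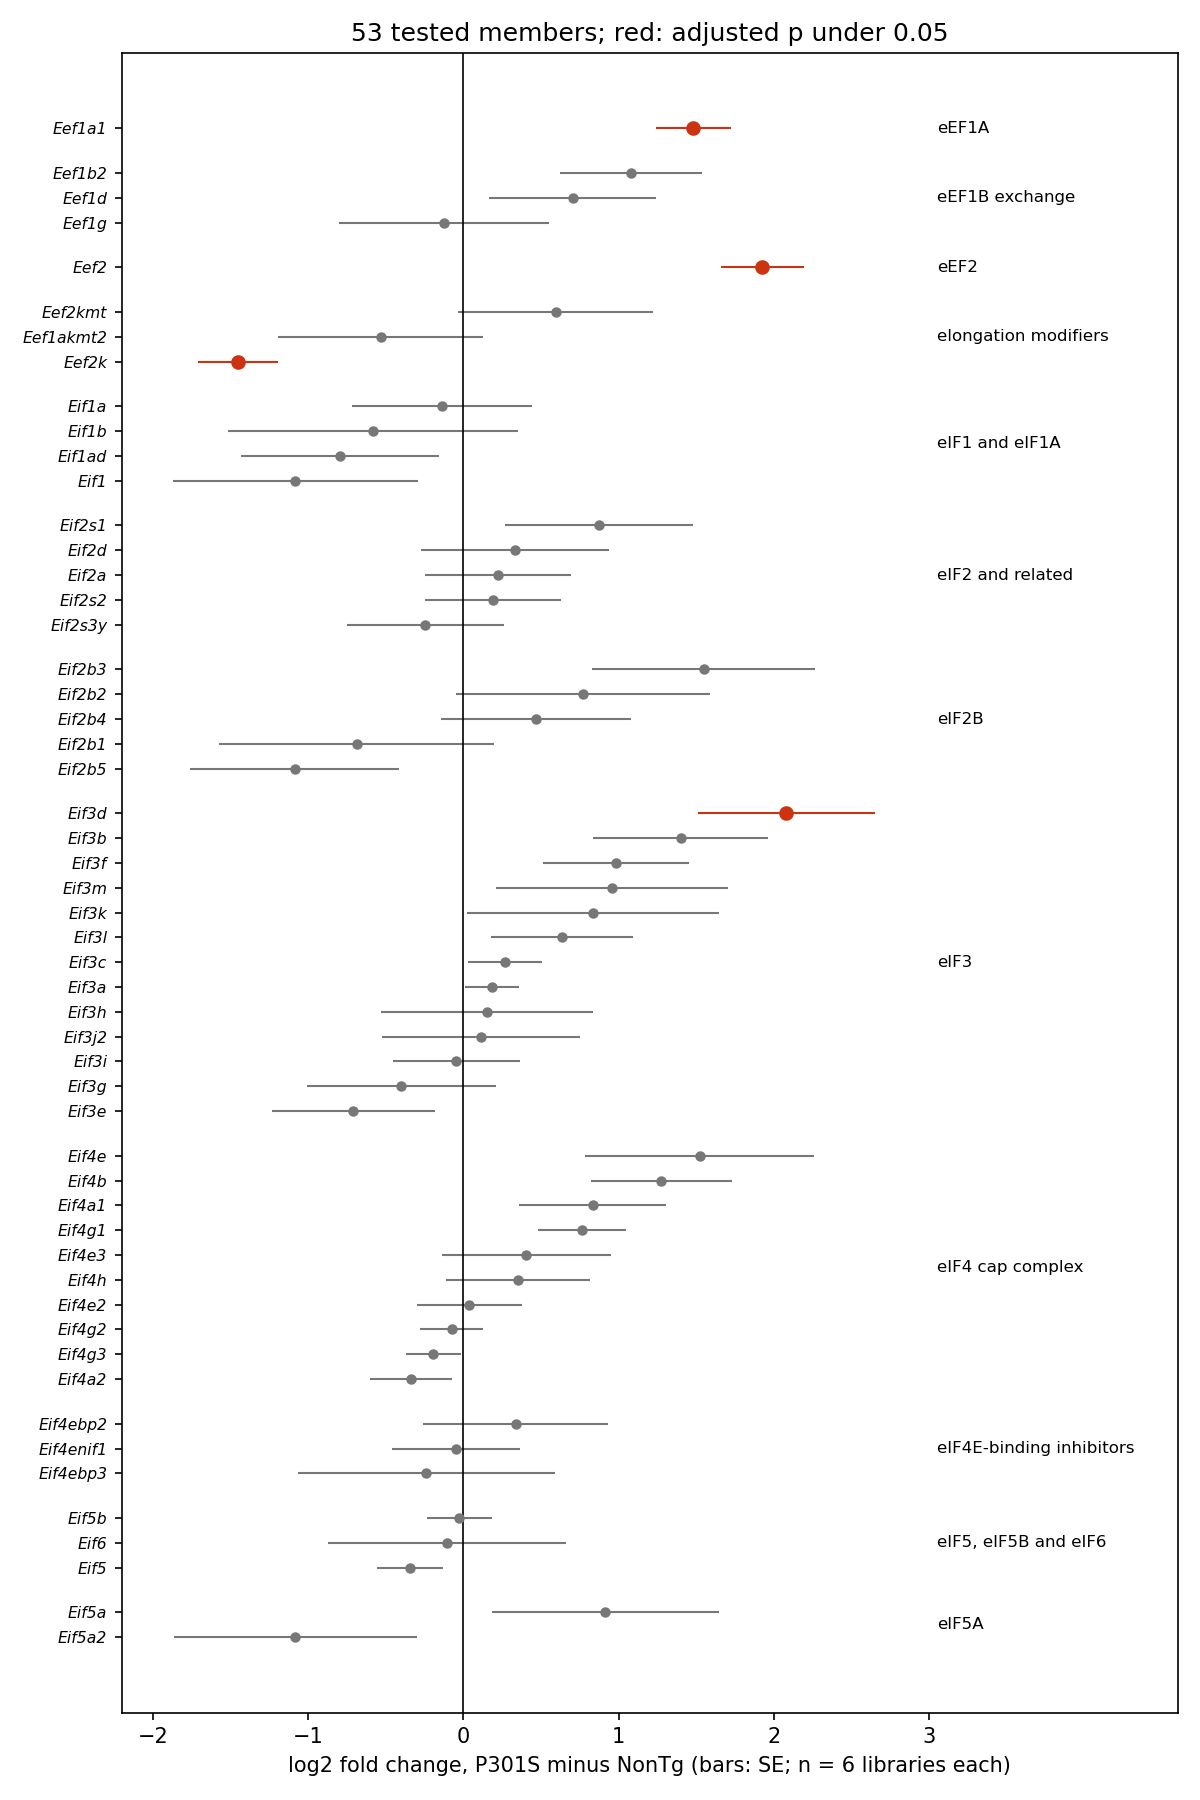
Log2 difference between P301S and NonTg for the 53 tested genes by role (points: estimate; bars: 1 SE; 6 libraries a group; red: edgeR adjusted p under 0.05). Eef1a1, Eef2 and Eif3d lie to the right and Eef2k to the left in red, and the initiation factors scatter around a median of 0.19.

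Ordered by mean RPKM, the 2 called elongation factors changed places with initiation factors. In NonTg the order began with Eif3a (66.2), Eif5b (35.7 ± 10.1), Eif4g3 (15.2 ± 2.78), Eif5 (13.5 ± 2.53), Eef1a1 (13.03 ± 3.96), Eif4g2 (12.5 ± 3.36) and Eif3c (10.9 ± 3.10), and neighbours in the order from Eif4g3 to Eif3c did not differ beyond their SD. Eef2 was in place 9 with 8.12 ± 1.98 RPKM and Eef2k in place 11 with 7.23 ± 2.15 RPKM. In P301S, Eef1a1 stood in place 2 (36.6 ± 10.1 RPKM), Eif5b in place 3 (35.2 ± 11.3) and Eef2 in place 4 (31.2 ± 14.05), which do not differ beyond their spread. Eef2k was in place 25 with 2.65 ± 0.659 RPKM, and Eif3d went from place 47 (0.816 ± 0.383 RPKM) to place 18 (3.41 ± 2.23 RPKM).

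**Figure D4:**
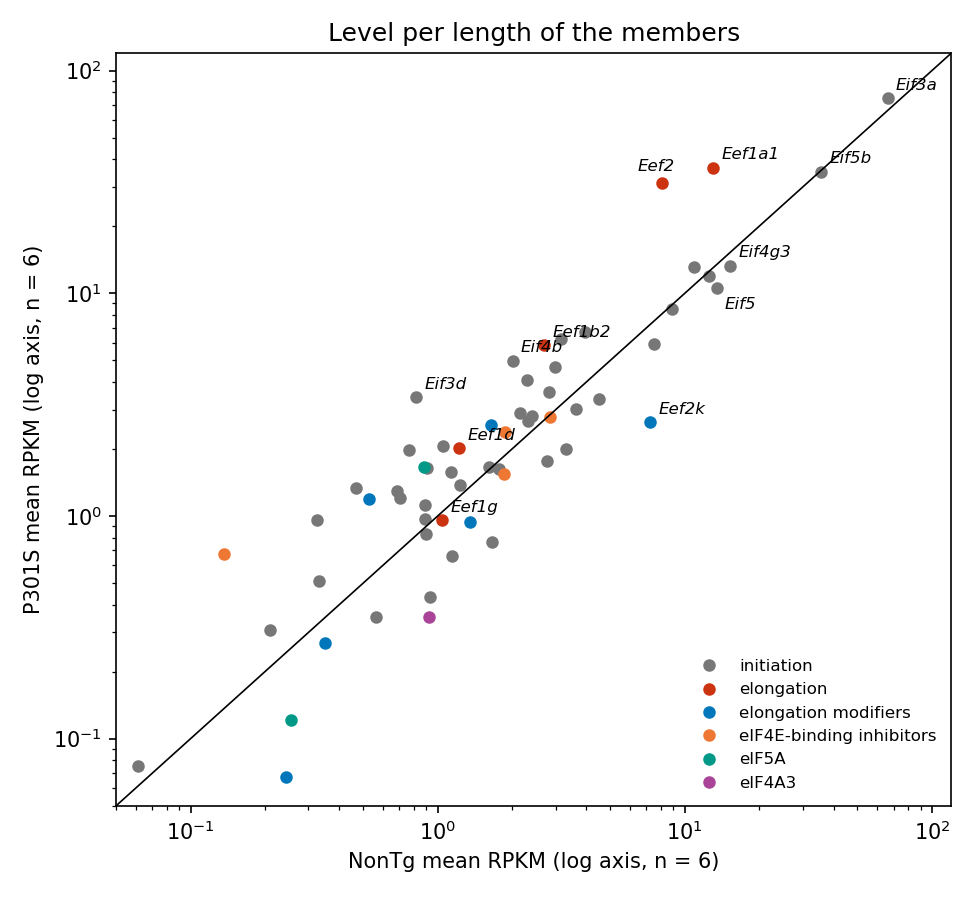
Mean level per length of 61 of the 65 genes (deposited RPKM, mean of 6 libraries, log axes; the line marks equal levels, and 4 genes at or under 0.05 RPKM in a group are not drawn). Eef1a1 and Eef2 lie above the line and Eef2k below it, while Eif3a and Eif5b lie close to it at the upper end.

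Other regulators of translation were read from a list of 59 genes, which held eIF2 alpha kinases and phosphatase subunits, mTORC1 and its kinases, poly(A)-binding proteins, termination and recycling factors and eIF5A-modifying enzymes. Of the 49 tested, 1 was called higher and none lower by edgeR (2 were called with DESeq2), against 3.87% of all tested genes in either direction, and the median log2 difference was 0.10. At an unadjusted p under 0.05 in edgeR, 4 of the 49 were higher and 1 lower, against 8.02% and 7.74% of all tested genes. The called gene was Larp1, which binds messenger RNAs with the terminal oligopyrimidine tract under control of mTORC1. It had 111 to 188 CPM in NonTg and 185 to 340 CPM in P301S (log2 difference 0.79 ± 0.22, SE; edgeR adjusted p = 0.0433; means 141 ± 29.7 and 243 ± 55.6 CPM). The ranges overlapped at their edge, and the call was lost in 17 of the 23 other fits, 10 of them with 1 library left out.

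The next 5 genes of that list by p were not called. Pabpc1, the main poly(A)-binding protein, had 80.4 ± 32.8 CPM in NonTg and 155 ± 45.3 CPM in P301S (log2 difference 0.95 ± 0.28, SE; edgeR adjusted p = 0.0531). Pabpc1 was called in 8 of the 23 other fits, 7 of them with all libraries kept, DESeq2 (adjusted p = 0.0211) and limma voom (0.0261) among them. It was also called without NonTg replicate 3 (0.00931). Its partner Paip1 differed by -1.54 ± 0.53 (adjusted p = 0.108), where NonTg replicate 3 stood at 173 CPM and all other libraries at 8.04 to 43.0 CPM. Without that library the difference of Paip1 was -0.66 (adjusted p = 0.599). The double-stranded RNA kinase Eif2ak2 differed by 0.71 ± 0.28 (adjusted p = 0.166; 90.4 ± 32.9 and 148 ± 39.0 CPM). Abcf2, an ABC-family ATPase, differed by 1.65 ± 0.75 (0.269), and the release factor Gspt1 by -0.56 ± 0.28 (0.323; 99.4 ± 12.6 and 67.5 ± 17.7 CPM).

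The difference between the genotypes also moved with gene length, taken as the length implied by count over RPKM, over all 10022 tested genes. These lengths had a Spearman correlation of 0.82 with the longest annotated transcripts. It moved with the GC content of the longest transcript too, over the 8916 tested genes that had one. From the shortest to the longest of 5 equal bins the median log2 difference was 0.06, 0.01, 0.00, -0.05 and -0.09, and from the lowest to the highest of 5 GC bins -0.17, -0.10, 0.01, 0.13 and 0.19. Eef1a1 lies in the shortest bin, Eef2 and Eif3d in the second shortest and Eef2k in the longest, and Eef2 in the highest GC bin. With the GC trend of each library removed, the log2 differences were 1.46 for Eef1a1, 1.70 for Eef2, -1.59 for Eef2k and 1.86 for Eif3d. With the length trend removed they were 1.38, 1.88, -1.45 and 1.95, and all 4 were called in both fits. In the reference, 14 pseudogenes carry names of the family, of which 1 was in the tables, with 3 counts, so reads lost to such copies could not be measured.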

How the data were processed

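The 12 RNA-seq tables give, per the file headers, a count of uniquely aligned reads for each gene model and an RPKM value adjusted by a size factor of the sample. Per the submitters' processing notes, reads were aligned with GSNAP to GRCm38. The version, counting tool, annotation release and strand setting were not stated there or in the labels. Gene numbers were matched to a RefSeq table of GRCm38.p6 (31049 of 36528, 85.0%). The deposited counts were filtered with filterByExpr (minimum count 10), scaled by TMM and tested with edgeR 4.0.16 (quasi-likelihood, robust, no covariate; R 4.3.3) over 10022 genes with Benjamini-Hochberg adjustment at 0.05. CPM use TMM-scaled totals, and the sums of counts do not. The deposited RPKM served for levels per length and for alternative limma 3.58.1 fits on log2(RPKM + 1) and log2(RPKM + 0.1). DESeq2 1.42.0 was another alternative.

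Groups came from the genotype label, and replicate numbers follow record order, so they pair nothing. All 30 pairs within groups differed beyond sampling noise (chi-square per degree of freedom at least 18.2), so none was merged. The common biological coefficient of variation was 0.64. Counting limits cover counting error only, since reads had no molecular identifiers. The genes, role lists and the 59 regulators were chosen with earlier results of these data known. Named were all called genes, up to 3 genes of smallest p in each role, a list of factors always given, and from the regulators the called gene and the next 5. Other genes named for their level or counts were chosen after their values were seen. Library measures were compared by exact permutation over 924 assignments.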

Additional observations from a re-analysis of the deposited data

Results flagged for a closer look

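Of 88 groups of 6 libraries checked over the named genes and library measures, 4 had a lowest library set apart from the other 5 by more than 0.625 of the range, and chance alone gives about 1 in 20. Eif3b in P301S replicate 4 was at a log2 CPM of 2.41, against 4.56 to 5.24 in the other P301S libraries. Eef1d in NonTg replicate 5 was at 1.70, against 4.32 to 5.07. Eef2kmt in NonTg replicate 3, which had no count of it, was at -0.303, against 3.51 to 5.18. Eif1ad in P301S replicate 3 was at 2.13, against 2.93 to 3.39.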

How the results depend on the processing

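The log2 differences of Eef1a1 (1.38 to 1.65), Eef2 (1.70 to 2.05) and Eef2k (-1.59 to -1.15) kept their direction and call in all 23 other fits (9 planned, 2 for length and GC trends added after seeing the data, 12 with a library left out), and 3 to 5 of the 65 genes were called in each. Over all genes, 388 were called (238 higher, 150 lower), against 1044 with DESeq2 (481 higher, 563 lower) and 1063 without a filter on low counts (411 higher, 652 lower). The cause was not tested. The median of all genes was -0.35 with DESeq2 and -0.25 without the filter. A fit with a filter of 1 CPM in 6 libraries covered 13554 genes, against 10022 in the main fit, and called 367. Leaving out a library gave 91 to 169 lower calls (91 without P301S replicate 1, 96 without P301S replicate 6) and a median of 0.87 to 1.42 for elongation factors. The number of other regulators called was 1, but 0 with library totals alone or without mitochondrial genes and Malat1, 2 with DESeq2 or a filter of 1 CPM in 6 libraries, and 0 to 1 with a library left out. The gene was not always Larp1: in 6 fits with 1 call (limma voom, no filter, both RPKM fits, GC trend removed, without NonTg replicate 3) Larp1 was lost and Pabpc1 called. Small differences changed sign. Eif5b was 0.058 without a filter, 0.011 with the 1 CPM filter, 0.016 without the length trend and 0.043 without the GC trend, where Eif2s3y was 0.18 and Eif4g2 0.016. Eif4enif1 was 0.11 on RPKM + 1 and 0.24 on RPKM + 0.1. With a library left out, Eif5b ran from -0.14 to 0.11, Eif4enif1 from -0.25 to 0.36, Eif6 from -0.69 to 0.15, Eef1g from -0.30 to 0.18, Eif4g2 from -0.17 to 0.055, Eif4ebp3 from -0.75 to 0.79 and Eif1b from -1.04 to 0.63. Depth limits the 15 tested genes under 10 CPM. No paired analysis was possible because the labels give no replicate numbers.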
